A study of Mus musculus with 12 samples.

Results

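The 35 genes described here encode the aminoacyl-tRNA synthetases, 20 of the cytosol and 15 of the mitochondrion, and were picked by gene symbol from the 52636 genes of the count table. Lars2, the mitochondrial leucine enzyme, was left out because it collects ribosomal-RNA-like reads. Aminoacyl-tRNA synthetases join each amino acid to its own transfer RNA, and so supply the charged tRNAs from which ribosomes build protein. Cytosolic and mitochondrial ribosomes draw on mostly separate sets, all encoded in the nucleus, while Gars and Kars each encode both forms. Many cytosolic synthetase genes are textbook targets of ATF4, the transcription factor that is made when amino acids are short or the endoplasmic reticulum is stressed.

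RNA was sequenced in 12 libraries of mouse salivary glands, dissected at E13.5 and grown ex vivo for 2 days. FGFRi glands (n = 3) were wild type and received SU5402, a chemical blocker of FGF receptor kinase activity, at 2.5 µM, and DMSO glands (n = 3) were wild type and received its solvent. HOM glands (n = 2) were K14Cre-Fgfr2b -/-, with the epithelial isoform of FGF receptor 2 deleted by Cre under the keratin 14 promoter, a promoter of epithelial cells. HET (n = 2) and WT (n = 2) glands were their littermates, and none of these 6 cultures was treated. The labels do not say whether the littermates carried Cre, whether glands were pooled, or which libraries came from separate embryos. P-values therefore rest on differences among libraries of a group, and part of these may be technical.

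Library totals ran from 6043701 to 22322182 counts, and ribosomal-RNA-like and structural RNA took 16.4% to 40.8% of them. Fgfr2 was read at 89.2 to 94.4 CPM (counts scaled to a common library size) in HOM libraries, against 86.2 to 99.9 in HET and 99.2 to 101 in WT, but counts per gene do not separate the deleted isoform. Both HOM libraries were female by Xist and Y-linked counts and all 4 WT and HET libraries were male, so genotype and sex cannot be told apart. The glands expressed markers of epithelium and mesenchyme, the main tissues of this organ, and all markers had counts in every library except Twist2 of the mesenchyme list, at 0 in DMSO 1. Summed CPM of 16 pan-epithelial markers was 1714 to 1950 in FGFRi and 2329 to 2665 in DMSO, and 1742 to 1849 in HOM, 2130 to 2273 in HET and 2436 to 2537 in WT. Summed CPM of 17 mesenchyme markers was 4197 to 5748 in FGFRi and 2592 to 2696 in DMSO, and 4523 to 4730 in HOM, 4027 to 4384 in HET and 2801 to 2960 in WT. In such bulk RNA, fewer cells of a type and less RNA per cell cannot be told apart.

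Levels below are CPM after TMM normalization, edgeR's scaling of the libraries to one another. All 35 genes passed the filter on low counts, with 175 to 5846 counts per library for cytosolic and 28 to 1614 for mitochondrial genes. Per kilobase of transcript, mean levels over the 12 libraries ran from 13.1 CPM (Cars, for cysteine) to 62.2 CPM (Kars, for lysine) among cytosolic genes, with a median of 28.1. Mitochondrial genes ran from 1.64 (Mars2, for methionine) to 13.6 CPM per kilobase (Iars2, for isoleucine), with a median of 6.24. In each of the 12 pairs with a cytosolic and a mitochondrial gene for 1 amino acid, the cytosolic gene was the higher per kilobase, by 1.62 times for threonine to 25.1 times for asparagine.

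With FGFRi, 15 of the 20 cytosolic genes were lower than with DMSO at an adjusted p under 0.05 (edgeR quasi-likelihood test, adjusted over 15859 genes) and none was higher, but on a scale set by the pan-epithelial markers none was lower and 4 were higher. Of all genes tested, 10.7% were lower and 9.73% higher, while on the pan-epithelial scale 1.05% were lower and 51.6% higher. The median log2 fold change was -0.42 over the cytosolic genes and -0.015 over all genes. Of the 15 mitochondrial genes 3 were lower and none higher, with a median of -0.23, and on the pan-epithelial scale 3 were higher. That scale moved the median of all genes to 0.43. Relative to it the cytosolic median was -0.40 and the mitochondrial median -0.21. With library totals in place of TMM, Vars alone of the cytosolic and none of the mitochondrial genes passed, where 1.8% of all genes were lower, while the medians were -0.39 and -0.21.

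**Figure D1:**
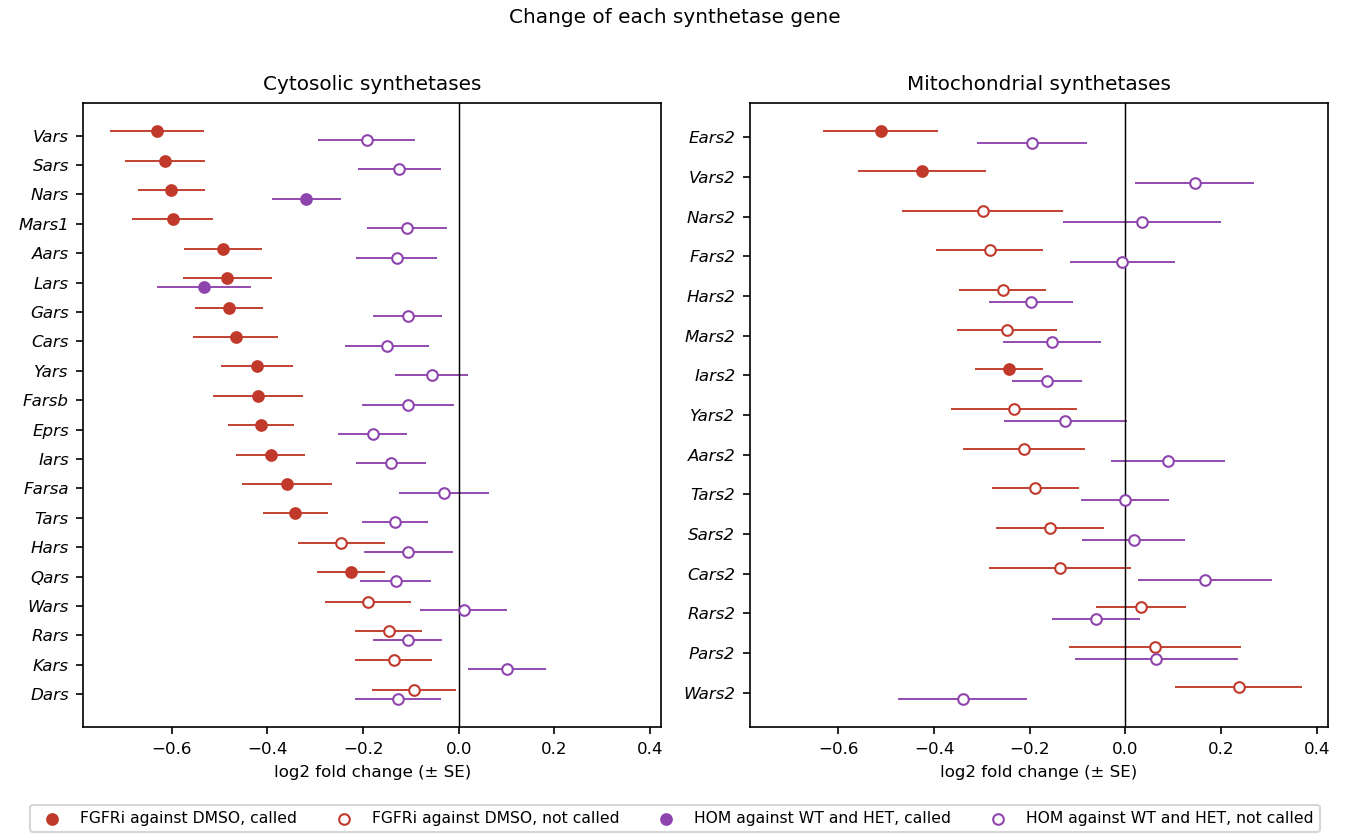
Log2 fold change (± SE) of each synthetase gene with FGFRi against DMSO (red) and in HOM against WT and HET (purple). Filled points passed the test. With FGFRi 15 of 20 cytosolic and 3 of 15 mitochondrial genes fell. None of these calls held on the pan-epithelial scale, 9 of the 18 genes turned to values above 0, and 4 cytosolic and 3 mitochondrial other genes were higher.

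The promoters of 5 genes that fell with FGFRi hold the motif through which ATF4 dimers are known to bind, TGATGNAA, the composite C/EBP-ATF element. Stretches around it are shown from the RefSeq promoter table (build GRCm38.p6), each 5′ to 3′ on the strand of its gene, with TGATGNAA or its reverse complement in capitals. In Aars, CACGTG, the E-box that MYC and related factors bind, is also in capitals.
Aars, alanine enzyme, chr8:111033682-111033751, plus strand: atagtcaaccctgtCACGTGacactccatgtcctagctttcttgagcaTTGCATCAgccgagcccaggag
Gars, glycine enzyme, chr6:55037931-55038000, plus strand: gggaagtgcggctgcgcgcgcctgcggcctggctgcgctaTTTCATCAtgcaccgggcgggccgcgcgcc
Tars, threonine enzyme, chr15:11399659-11399728, minus strand: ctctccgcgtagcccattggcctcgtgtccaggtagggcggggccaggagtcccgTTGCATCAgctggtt
Iars, isoleucine enzyme, chr13:49682125-49682154, plus strand: gcactgtcagtaTTGCATCAcctccagacg
Yars, tyrosine enzyme, chr4:129189894-129189923, plus strand: gacgagctcagcTGATGCAAcccgacggga

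The motif begins 112 bases before the annotated start in Aars, which holds a further copy 10 bases after it, 30 bases before in Gars, 15 before in Tars, 8 after in Iars and 4 after in Yars. Entries, spanning 250 bases before to 50 after the start, were found for 26 of the 35 genes, 13 of each compartment. Cars, Hars, Lars, Nars, Rars, Vars, Wars, Hars2 and Pars2 had none. On either strand TGATGNAA was in a promoter of 5 of the 13 cytosolic and 0 of the 13 mitochondrial genes. Counted by promoter and not by gene, it was in 3.97% of the 32851 promoters of the table. Of the 13 cytosolic genes, the 5 with the motif all fell with FGFRi (median log2 fold change -0.42), as did 6 of the 8 without it (median -0.39). CACGTG, which does not overlap the other motif, was in Aars, Farsb, Iars and Tars of the cytosolic set, in Ears2 of the mitochondrial set, and in 7.15% of all promoters. These matches describe letters in the window and are not evidence of binding.

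Nars, the asparagine enzyme, had the smallest p of the family. It was read at 97.8, 96.9 and 99.7 CPM in FGFRi libraries, against 154, 142 and 151 CPM in DMSO libraries. The groups lay far apart, and the log2 fold change was -0.60 ± 0.07 (SE, adjusted p = 4.62e-05). Sars, the serine enzyme, had 100.2, 115 and 122 CPM with FGFRi, against 185, 173 and 159.9 with DMSO (-0.61 ± 0.08, adjusted p = 1.69e-04). Mars1, the methionine enzyme, which also charges the initiator tRNA, had 48.1, 50.1 and 55.7 CPM with FGFRi, against 86.9, 74.8 and 73.4 with DMSO (-0.60 ± 0.08, adjusted p = 2.06e-04). In each of these genes every FGFRi library was below every DMSO library, at 0.653 to 0.660 times the level of DMSO.

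Vars, the valine enzyme, fell furthest. It had 91.6, 102 and 103 CPM with FGFRi, against 182, 143 and 138 with DMSO, a log2 fold change of -0.63 ± 0.10 (adjusted p = 4.71e-04). DMSO 1 was the highest of its group in Vars and also in Sars, Mars1, Gars and Aars. Gars, the glycine enzyme, had 92.1, 98.3 and 99.1 CPM with FGFRi, against 145, 135 and 125 with DMSO (-0.48 ± 0.07, adjusted p = 3.00e-04). Aars, the alanine enzyme, had 112, 122 and 131 CPM with FGFRi, against 189.7, 172 and 154 with DMSO (-0.49 ± 0.08, adjusted p = 7.30e-04). The groups did not overlap in these genes.

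Eprs encodes a single chain that charges both glutamate and proline tRNAs in the cytosol. It had 154, 161 and 171 CPM in FGFRi, against 234, 211 and 205 in DMSO (-0.41 ± 0.07, adjusted p = 7.80e-04). Lars, the leucine enzyme, which also acts as a leucine sensor for mTORC1, had 71.2, 67.9 and 89.1 CPM in FGFRi, against 114, 107 and 101 in DMSO (-0.48 ± 0.09, adjusted p = 0.00201). FGFRi 3 was the highest FGFRi library for Lars and still lay below all of DMSO. Iars, the isoleucine enzyme, had 84.4, 95.1 and 95.7 CPM in FGFRi, against 130.0, 117 and 116 in DMSO (-0.39 ± 0.07, adjusted p = 0.00144).

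Yars, the tyrosine enzyme, had 52.5, 47.5 and 50.4 CPM in FGFRi glands, against 72.3, 63.5 and 66.0 in DMSO glands (-0.42 ± 0.08, adjusted p = 0.00130). Cars, the cysteine enzyme, had 32.1, 33.9 and 33.8 CPM in FGFRi glands, against 49.2, 47.6 and 41.0 in DMSO glands (-0.47 ± 0.09, adjusted p = 0.00183). Tars, the threonine enzyme, had 56.0, 58.6 and 61.2 CPM in FGFRi glands, against 73.7, 74.7 and 75.2 in DMSO glands (-0.34 ± 0.07, adjusted p = 0.00252). The ranges were again apart in all 3 genes, and Tars varied least among DMSO libraries.

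Both subunits of the phenylalanine enzyme fell: Farsb by 0.42 ± 0.09 (adjusted p = 0.00548) and Farsa by 0.36 ± 0.09 on the log2 scale (adjusted p = 0.0142). Qars, the glutamine enzyme, fell by 0.23 ± 0.07 (adjusted p = 0.0367). Leaving out 1 library at a time, Farsa missed the threshold without FGFRi 1, FGFRi 2 or DMSO 1 (adjusted p up to 0.0810) and Qars missed it in 7 of 12 fits (up to 0.187). The other 13 cytosolic genes that fell kept their call in all 12 such fits.

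The remaining 5 cytosolic enzymes did not pass: Hars (histidine, -0.25, adjusted p = 0.0718), Wars (tryptophan, -0.19, adjusted p = 0.157), Rars (arginine, -0.15, adjusted p = 0.161), Kars (lysine, -0.14, adjusted p = 0.252) and Dars (aspartate, -0.093, adjusted p = 0.507). Dars was also the only cytosolic gene whose libraries overlapped, with 54.0 to 67.7 CPM in FGFRi and 63.0 to 67.2 in DMSO. In the other 19, every FGFRi library was below every DMSO library, as it was in 20.5% of all genes tested. On the pan-epithelial scale Dars, Kars, Rars and Wars were the 4 cytosolic genes that rose, with log2 fold changes of 0.25 for Wars to 0.35 for Dars.

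**Figure D2:**
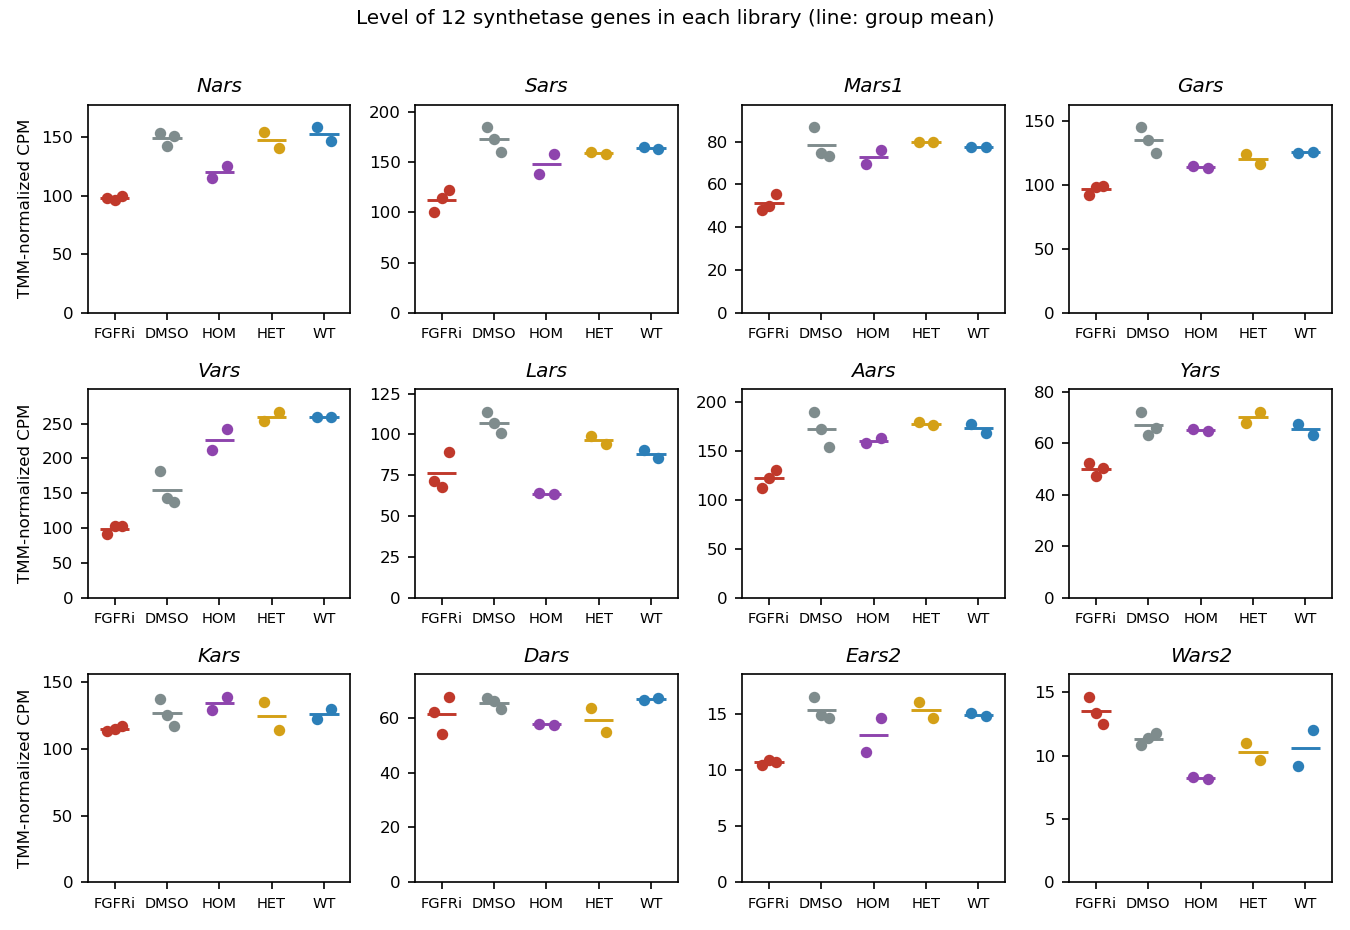
TMM-normalized CPM of 12 synthetase genes in each library (points) and group means (lines), for FGFRi, DMSO, HOM, HET and WT. Nars, Sars, Mars1, Gars, Vars, Lars, Aars and Yars were lower in every FGFRi library than in every DMSO library, Dars overlapped, and Wars2 lay higher in FGFRi.

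Of the mitochondrial enzymes, Ears2, Iars2 and Vars2 fell with FGFRi, though on the pan-epithelial scale none of them did. Ears2, the glutamate enzyme, was read at 10.5, 10.9 and 10.7 CPM with FGFRi, against 16.6, 14.9 and 14.6 CPM with DMSO, and fell by 0.51 ± 0.12 on the log2 scale (adjusted p = 0.00738). It kept its call with each library left out. Iars2, the isoleucine enzyme and the most abundant of the set per kilobase, had 66.6 to 73.5 CPM with FGFRi, against 80.0 to 87.7 with DMSO (-0.24 ± 0.07, adjusted p = 0.0254). Vars2, the valine enzyme, had 14.5 to 18.2 CPM with FGFRi, against 18.1 to 26.6 with DMSO, so that its groups overlapped (-0.43 ± 0.13, adjusted p = 0.0347). Iars2 missed the threshold in 5 of the 12 fits with a library left out (adjusted p up to 0.160) and Vars2 in 6 (up to 0.146).

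The other 12 mitochondrial genes did not pass. Hars2 (-0.26, adjusted p = 0.0581) and Fars2 (-0.28, adjusted p = 0.0864) came nearest. Nars2, Mars2, Yars2, Aars2, Tars2, Sars2 and Cars2 had log2 fold changes of -0.30 to -0.14. Rars2 (0.032), Pars2 (0.062) and Wars2 (0.24) were above 0. Wars2, the tryptophan enzyme, was the only member with every FGFRi library above every DMSO library, at 14.7, 13.4 and 12.5 CPM with FGFRi against 10.8, 11.4 and 11.8 CPM with DMSO (adjusted p = 0.230), an order seen in 17.2% of all genes. On the pan-epithelial scale Wars2, Rars2 and Pars2 were the 3 mitochondrial genes that rose. Every FGFRi library was below every DMSO library in 7 of the 15, as in 20.5% of all genes. Estimates were less precise in this set, with a median SE of 0.12 against 0.083 for cytosolic genes.

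A difference between the compartments does not depend on how libraries are scaled. The cytosolic median was 0.18 below the mitochondrial median with FGFRi (-0.18 on the log2 scale), and over all other settings this difference ran from -0.26 to -0.16. In each library, the mean log2 deviation of the cytosolic genes minus that of the mitochondrial genes was -0.16, -0.11 and -0.086 in FGFRi 1 to 3, against 0.15, 0.012 and 0.100 in DMSO 1 to 3. All 3 FGFRi libraries were below 0 and all 3 DMSO libraries above it, and DMSO 2 was closest to 0. Within the 12 pairs for 1 amino acid, the cytosolic gene changed more towards lower values in 11. The gap was widest for serine (Sars -0.61 and Sars2 -0.16) and tryptophan (Wars -0.19 and Wars2 0.24), and the exception was histidine (Hars -0.25 and Hars2 -0.26). These pairs share libraries and are described without a test.

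**Figure D3:**
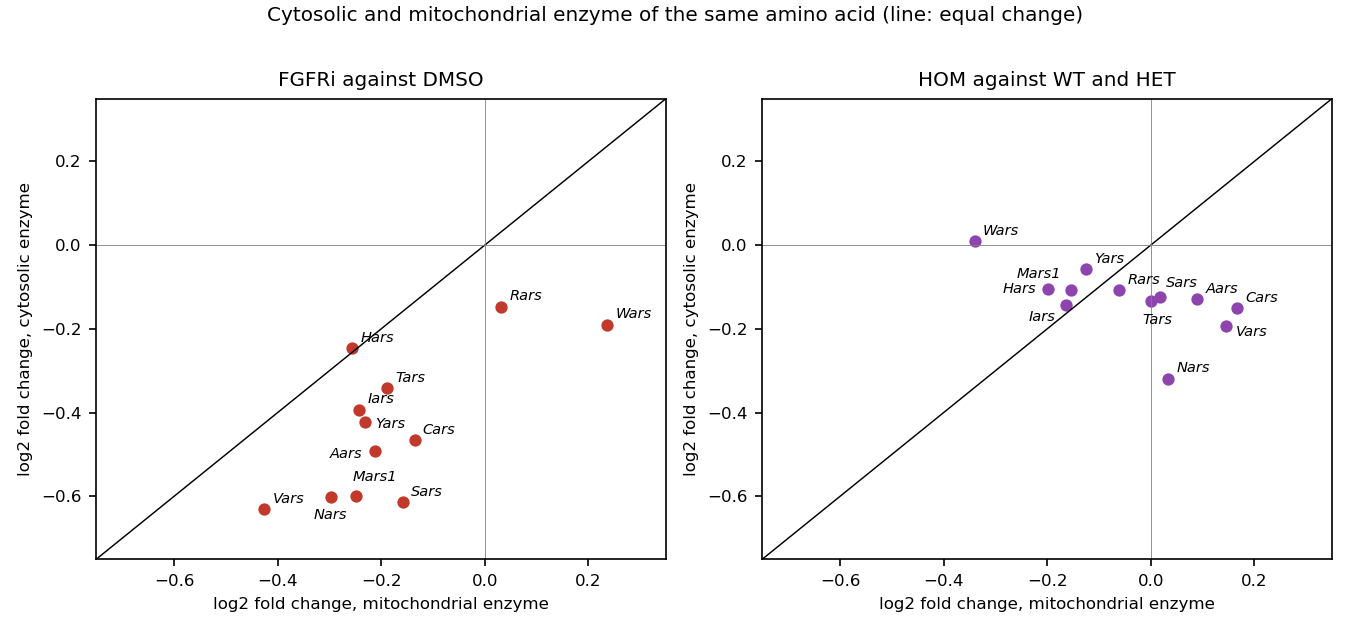
Log2 fold change of the cytosolic enzyme (vertical) against that of the mitochondrial enzyme for the same amino acid (horizontal), with FGFRi against DMSO (left) and in HOM against WT and HET (right). Points under the line are pairs whose cytosolic gene changed more towards lower values: 11 of 12 with FGFRi and 7 of 12 in HOM, a comparison within libraries that scaling does not move.

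Within the cytosolic set, the 12 known ATF4 targets (Aars, Cars, Eprs, Gars, Iars, Lars, Mars1, Nars, Sars, Tars, Wars and Yars) had a median log2 fold change of -0.47 with FGFRi. Of these, 11 fell and Wars did not pass. The other 8 had a median of -0.24, and Vars, Farsb, Farsa and Qars of them fell. On the pan-epithelial scale no gene of either list fell. The 8 enzymes that sit in the multisynthetase complex, a cytosolic assembly held together by the scaffold proteins Aimp1, Aimp2 and Eef1e1, had a median of -0.31 with 5 fallen, and the 12 free enzymes a median of -0.44 with 10 fallen. By the fold of the catalytic domain, 7 of 9 class I and 7 of 10 class II cytosolic genes fell. Eprs, which joins a domain of each class, stands outside that count. All 3 mitochondrial genes that fell were among the 8 of class I, and none of the 7 of class II did, where 10.7% of all genes fell. The medians of these classes were close, at -0.24 and -0.21. Of the 3, Iars2 and Vars2 lost their call in some fits with a library left out.

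Genes of the surrounding pathways were read as lists. Of 30 amino acid stress genes, most of them ATF4 targets, 26 fell with FGFRi and Slc7a11 rose, with a median log2 fold change of -0.68. Of all genes 10.7% fell and 9.73% rose. On the pan-epithelial scale 14 of the 30 still fell and 2 rose, where 1.05% of all genes fell and 51.6% rose. Trib3, a pseudokinase of the stress response, averaged 2.04 ± 0.217 CPM with FGFRi and 12.5 ± 2.48 CPM with DMSO (SD, n = 3 each, log2 fold change -2.60). Asns, which makes asparagine, averaged 27.9 ± 3.83 CPM with FGFRi and 66.8 ± 7.27 CPM with DMSO (-1.23). No synthetase gene changed by as much as these 2 with FGFRi. In DMSO against untreated WT glands, 5 of the 30 genes were higher, among them Trib3 (1.73) but not Asns, where 1.27% of all genes were higher.

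Of 11 tested synthetase partners and tRNA exporters, Xpot and Aimp1 fell, but on the pan-epithelial scale none fell and 4 rose. Of all genes 10.7% fell and 9.73% rose, while on that scale 1.05% fell and 51.6% rose. Xpot, the exportin that carries tRNA out of the nucleus, averaged 101 ± 2.31 CPM with FGFRi and 140.0 ± 3.74 CPM with DMSO (-0.47 ± 0.06, adjusted p = 1.69e-04), and was at -0.026 (adjusted p = 0.818) on the pan-epithelial scale. Aimp1 fell by 0.34 ± 0.09 (adjusted p = 0.0131), a call lost without FGFRi 1, FGFRi 2 or DMSO 2, and was at 0.11 on the pan-epithelial scale. Of 14 kinases and regulators of the integrated stress response, which controls ATF4, Gcn1, Eif2b2 and Ppp1r15b fell and Impact rose. On the pan-epithelial scale 8 of the 14 rose and none fell, near the 51.6% of all genes that rose. Impact, an inhibitor of the kinase GCN2, averaged 35.8 ± 3.59 CPM with FGFRi and 23.9 ± 1.24 CPM with DMSO (0.58 ± 0.10, adjusted p = 0.00127).

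Other parts of the protein synthesis machinery were mixed, where 10.7% of all genes fell with FGFRi and 9.73% rose. On the pan-epithelial scale 1.05% of all genes fell and 51.6% rose. Of 20 ribosome biogenesis genes 13 fell (median -0.29), among them Polr1c, a subunit of RNA polymerases I and III (-0.59), and Nop2, an rRNA methyltransferase (-0.40), but on the pan-epithelial scale none fell and 1 rose. Of 22 cytosolic translation factors 8 fell (median -0.23), among them Eif3b (-0.39) and Eef1b2 (-0.46, lost without FGFRi 1 at an adjusted p of 0.0511), whereas 8 rose and none fell on that scale. Of 26 mitochondrial translation genes 1 fell, the elongation factor gene Tsfm (-0.36, adjusted p = 0.0343, lost without FGFRi 1, FGFRi 2, DMSO 1, DMSO 2, WT 1 or WT 2 at up to 0.161), and the median was -0.15, while 12 rose on the pan-epithelial scale.

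Cell type markers also changed, where 10.7% of all genes fell with FGFRi and 9.73% rose. With FGFRi 15 of 16 pan-epithelial markers fell (median -0.41, where the cytosolic synthetase median was -0.42). In HOM these medians were -0.36 and -0.13. All 17 mesenchyme markers rose with FGFRi (median 1.02), as did all 12 tested skeletal muscle markers (median 3.48). Muscle markers summed to 193 to 853 CPM in FGFRi and 31.0 to 95.6 CPM in DMSO. Of 9 neuron and glia markers 6 rose. Summed CPM of the cytosolic synthetases was 1564 ± 80.4 in FGFRi libraries and 2089 ± 133 in DMSO libraries (SD, n = 3 each). That of the mitochondrial synthetases was 261 ± 7.34 in FGFRi libraries and 302 ± 11.4 in DMSO libraries. The part of the change in tissue makeup in the synthetase values was not tested.

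**Figure D4:**
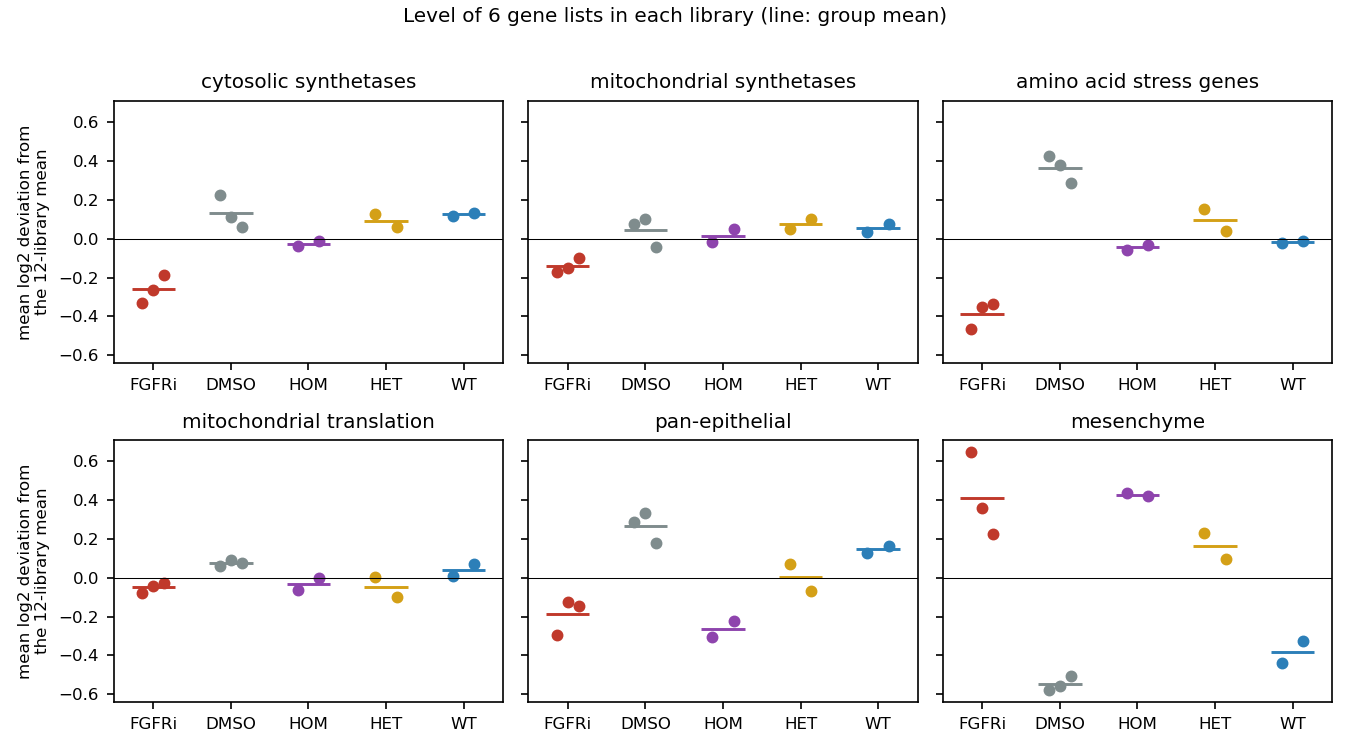
Mean log2 deviation of each gene list from its mean over the 12 libraries, per library (points) with group means (lines). Cytosolic synthetases, mitochondrial synthetases and amino acid stress genes were lowest in FGFRi. Pan-epithelial markers were low in both FGFRi and HOM, and mesenchyme markers were high in both. Mesenchyme markers were also higher in HET (0.23 and 0.097) than in WT (-0.44 and -0.33), with HET 1 near FGFRi 3 (0.23). Scaling to the pan-epithelial markers would set those markers level and raise FGFRi and HOM in all panels.

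In HOM against WT and HET, 2 of 20 cytosolic genes passed, both lower, where 2.44% of all genes were lower and 3.44% higher. On the pan-epithelial scale, which moved the median of all genes to 0.38, 15 cytosolic and 7 mitochondrial genes were higher instead, as were 45.1% of all genes, and 0.605% were lower. With library totals, which moved it to 0.15, none of either set passed, and 0.605% of all genes were lower. The median log2 fold change was -0.13 over the cytosolic genes, -0.0060 over the mitochondrial genes and 0.00055 over all genes, and relative to all genes the pan-epithelial scale gave -0.13 and -0.011. Summed CPM of the cytosolic synthetases was 1907 ± 48.6 in HOM, 2088 ± 51.0 in HET and 2129 ± 2.23 in WT (SD, n = 2 each). That of the mitochondrial synthetases was 287 ± 9.23 in HOM, 302 ± 3.45 in HET and 299.9 ± 7.91 in WT.

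Lars had 63.9 and 63.6 CPM in HOM libraries, against 99.3 and 94.3 in HET and 90.2 and 85.4 in WT. Both HOM values were far below the 4 controls, and the log2 fold change was -0.53 ± 0.10 (adjusted p = 0.00501). Nars had 115 and 126 CPM in HOM libraries, against 154 and 141 in HET and 159 and 147 in WT (-0.32 ± 0.07, adjusted p = 0.0168). The groups did not overlap in Nars either. With sex as a covariate neither passed (Lars -0.54, adjusted p = 0.278, and Nars -0.42, adjusted p = 0.261). Sex varied within a group only in DMSO, where DMSO 2 was male, so that fit cannot separate sex from genotype. Lars missed the threshold without HOM 2 (adjusted p = 0.101), and Nars without HOM 1, HOM 2, HET 1 or WT 1 (adjusted p up to 0.149). Lars and Nars lie on chromosome 18 with Hars (-0.11) and Hars2 (-0.20), which did not pass.

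No mitochondrial gene passed in HOM by edgeR, DESeq2 or limma-voom. At an unadjusted p under 0.05 Hars2, Iars2 and Wars2 were lower by edgeR and by limma-voom, and no gene by DESeq2. Wars2 had 8.32 and 8.15 CPM in HOM, against 10.98 and 9.65 in HET and 9.23 and 11.997 in WT (-0.34 ± 0.14, adjusted p = 0.169). Every HOM library was below all 4 controls in 11 of 20 cytosolic and 4 of 15 mitochondrial genes, as in 12.2% of all genes. In none of the 35 genes was every HOM library above all controls, an order held by 13.4% of all genes. Kars (0.10) and Wars (0.010) were the only cytosolic genes with a log2 fold change above 0 after TMM, whereas with library totals just 5 of the 20 were below 0. The cytosolic median was 0.12 below the mitochondrial one (-0.12), a difference that was -0.018 with HET alone as controls.

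Around them, 8 of 16 pan-epithelial markers fell in HOM (median -0.36) and 12 of 17 mesenchyme markers rose (median 0.51). Of 12 skeletal muscle markers 6 rose (median 2.38), with sums of 220.3 to 244 CPM in HOM, 115 to 218 in HET and 16.9 to 22.3 in WT. Of 9 neuron and glia markers 2 rose, and of 5 erythroid markers 1, Hba-a1 (2.22, adjusted p = 0.0449), which turned direction with the sex covariate. Of all genes 2.44% were lower and 3.44% higher. The calls of Actc1, Des, Myog and Cdh19 needed HOM 2, and those of Cldn7, Cdh1, Esrp1, Col5a2, Ttn and Hba-a1 needed both HOM libraries. Those of Cldn4, Pdgfrb, Zeb1, Zeb2 and Ednrb did not. The part of the marker shifts in the synthetase values was not tested. Of the 30 amino acid stress genes, Asns fell (-0.42, adjusted p = 0.0278) and Ddit4, an inhibitor of mTORC1, rose (0.37, adjusted p = 0.0198). On the pan-epithelial scale 14 of the 30 rose and none fell, where 45.1% of all genes rose. Asns lost its call without HOM 1, HOM 2, HET 1, WT 1 or WT 2 (adjusted p up to 0.289), and Ddit4 without HOM 2, HET 2 or WT 2 (up to 0.315). The partners, stress response regulators, translation factors, ribosome biogenesis genes and mitochondrial translation genes had no call in HOM. On the pan-epithelial scale, where 45.1% of all genes rose, 8 of 11 partners, 10 of 14 regulators and 15 of 22 translation factors rose. So did 17 of 20 ribosome biogenesis genes and 18 of 26 mitochondrial translation genes.

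The FGFRi effect minus the HOM effect was tested in the same model, in which both effects have their own controls. Mars1 and Sars passed, both with a lower value in the FGFRi comparison, where 1.41% of all genes were lower and 1.36% higher by this test. Mars1 changed by -0.60 with FGFRi and by -0.11 in HOM, a difference of -0.49 ± 0.12 (adjusted p = 0.0400). Sars changed by -0.61 with FGFRi and by -0.12 in HOM, a difference of -0.49 ± 0.12 (adjusted p = 0.0426). With a library left out at a time, each missed the threshold in 9 of 12 fits. The median difference was -0.27 over the cytosolic genes, -0.18 over the mitochondrial genes and -0.0070 over all genes. Lars had nearly equal log2 fold changes in both comparisons, -0.48 and -0.53, with a difference of 0.049 ± 0.13.

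HET glands, heterozygous by label, had no call against WT glands in the 35 genes by edgeR, and no member was at an unadjusted p under 0.05 by edgeR, DESeq2 or limma-voom. Log2 fold changes ran from -0.17 (Dars) to 0.14 (Lars) among cytosolic genes and from -0.24 (Aars2) to 0.29 (Nars2) among mitochondrial genes. Of all genes 0.372% were lower and 0.851% higher. Tissue markers did differ: 7 of 17 mesenchyme and 3 of 12 tested skeletal muscle markers were higher in HET than in WT. None of the 16 pan-epithelial markers was called.

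DMSO glands set against untreated WT glands had 1 call among the 35 genes, Vars. Vars had 182, 143 and 138 CPM in DMSO, against 259 and 259 CPM in WT, a log2 fold change of -0.75 ± 0.11 (adjusted p = 8.89e-04), where 0.984% of all genes were lower and 1.27% higher. The groups did not overlap, and HOM (212 and 242 CPM) and HET (253 and 267 CPM) also lay above all DMSO libraries. FGFRi libraries (91.6 to 103 CPM) were lower still. The call held with each library left out and was lost with library totals (adjusted p = 0.247). Of the 30 amino acid stress genes, 5 were higher in DMSO than in WT (median of the list 0.27), among them Trib3 (1.73) and Chac1 (1.61).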

How the data were processed

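The authors deposited raw read counts per Ensembl gene, whole numbers without normalization. Reads were handled with bcl2fastq and STAR on build GRCm39, per the submitters' processing notes. How reads were counted, with which annotation and strand, is not given in the sources used here, and overlapping antisense genes and near-identical copies could share reads. Symbols and transcript lengths came from GENCODE M21 (build GRCm38) by Ensembl identifier, with a symbol for 52403 of 52636 genes. Of gene locations, only the chromosome is therefore given from it. The members, lists and tests were chosen with earlier results of these data known.

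Counts were tested in R 4.3.3 with edgeR 4.0.16 (TMM, filterByExpr defaults, quasi-likelihood F test, 12 libraries, 5 group coefficients, residual df 7), which kept 15859 genes. P-values are two-sided, adjusted by Benjamini-Hochberg over all genes of a contrast, and called under 0.05. In the deletion contrast, controls are the averaged WT and HET coefficients. The model was tested on counts simulated for FGFRi against DMSO. It called 69% of genes changed by 1 on the log2 scale, 40% of those changed by 0.5 and 0.038% of unchanged genes. The changed genes were drawn from all genes tested, of any count, so these rates are not those of the synthetases. The HOM comparison, with fewer libraries, was not simulated. A gene that did not pass may therefore still have changed. Values are named for members by order of p, up to 12 per comparison, and for up to 4 genes of each other list. Genes described beyond this rule (such as Wars2, Dars, Slc7a11) were chosen after their values were seen. Alternatives covered scaling (by DESeq2 size factors, by library totals, by summed pan-epithelial counts), filters and feature sets, DESeq2 1.42.0, limma-voom (limma 3.58.1), the compared groups alone, a replicate block, a sex covariate, WT or HET alone as controls, and each library left out.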

Additional observations from a re-analysis of the deposited data

Results flagged for a closer look

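The changes of Mars1 and Sars differed between the FGFRi and HOM comparisons by a test of the difference itself (edgeR, adjusted over all genes). Mars1 had a difference of -0.49 (adjusted p = 0.0400), with 48.1 to 55.7 CPM in FGFRi, 73.4 to 86.9 in DMSO, 69.7 to 76.2 in HOM and 77.4 to 80.0 in HET and WT. Sars had a difference of -0.49 (adjusted p = 0.0426), with 100.2 to 122 CPM in FGFRi, 159.9 to 185 in DMSO, 138 to 158 in HOM and 158 to 165 in HET and WT. The call of Mars1 was lost in 15 and that of Sars in 14 of 24 alternatives, among them the replicate block (adjusted p = 0.0799 and 0.0816) and the sex covariate (0.150 and 0.102). The sex term rests on DMSO 2, the male library of DMSO, so that fit cannot separate sex from genotype.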

How the results depend on the processing

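Scaling decided most. With library totals the calls were 1 cytosolic and 0 mitochondrial with FGFRi, 0 cytosolic in HOM, 0 for the difference of effects and 0 for DMSO against WT. On the pan-epithelial scale they were 4 cytosolic and 3 mitochondrial with FGFRi, 15 cytosolic and 7 mitochondrial in HOM, all higher, 0 for the difference and 1 lower for DMSO against WT. On that scale 12 cytosolic and 11 mitochondrial genes turned direction with FGFRi, and 17 and 9 in HOM. Of the genes called after TMM, Eprs (0.032), Farsa (0.086), Farsb (0.020), Iars (0.048), Qars (0.21), Tars (0.099), Yars (0.024), Iars2 (0.20) and Vars2 (0.018) turned with FGFRi and Nars (0.061) in HOM. The cause was not tested. Without a filter HOM had 1 cytosolic call and the difference 4. The compared groups alone gave 1 mitochondrial call with FGFRi. With the sex covariate HOM had 0 cytosolic calls and the difference 0, and the cytosolic minus mitochondrial median was -0.26 with FGFRi and -0.20 in HOM. DMSO was the only group with both sexes, so the sex term rests on its male library, DMSO 2, and does not separate sex from genotype. With HET alone as controls HOM had 1 cytosolic call and a median difference of -0.018, and the difference of effects 1 call. With WT alone it had 0.

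Leaving out each library gave 13 to 15 cytosolic and 1 to 3 mitochondrial calls with FGFRi, 0 to 2 cytosolic calls in HOM and 0 to 4 for the difference. The cytosolic minus mitochondrial median ran from -0.26 (without DMSO 2) to -0.16 with FGFRi and from -0.12 to -0.056 (without HET 1) in HOM. Deviations of same-numbered libraries had r of -0.12 to -0.025 for FGFRi and DMSO, and -0.15 to -0.044 for HOM and its controls. For DMSO 1 with HET 1 and DMSO 2 with HET 2, r was 0.26 and 0.22. In groups of 2 libraries the deviations mirror each other, so this check cannot decide whether the numbers pair libraries. The replicate block gave 14 cytosolic and 2 mitochondrial calls with FGFRi, 2 cytosolic in HOM and 0 for the difference. The difference of effects needs all groups, so a fit of the compared groups alone was not run for it. Depth limits mitochondrial genes most, with as few as 28 counts in a library.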
